A study of Arabidopsis thaliana with 8 samples.

Results

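The single mutant dek4-2 was compared with the wild type Col-0 of Arabidopsis thaliana, using 4 of the 8 RNA sequencing libraries of the series, 2 from each genotype. Expression was read as FPKM, the number of fragments per kilobase of transcript scaled to the size of the library. Of the 33557 genes in each file, 18799 had a mean of at least 1 FPKM over these 4 libraries. Among them, 102 loci with a span under 300 bp were set apart and the other 18697 genes were tested.

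Whole seedlings were collected at 7 days, after growth on plates in long days. Col-0 carries no dek mutation by its label, dek4-2 carries the dek4-2 allele alone, and the other 4 libraries, used here beside single genes, come from the single mutant dek3-2 and from dd-2, the double mutant dek3-2 dek4-2. The labels do not give the lesion behind either allele, whether a line was backcrossed, or how many seedlings were pooled. The stated aim of the series was to identify genes affected by mutation of DEK3 and DEK4, and the comparison of dek4-2 with Col-0 asks which transcripts differ when DEK4 alone is mutated.

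DEK proteins are chromatin proteins that bind DNA and histones and can alter the folding and supercoiling of DNA, and they are known in plants and animals. Arabidopsis has a small family of them, and DEK3 is known to bind histones and to interact with a topoisomerase of type I. One well-studied readout of chromatin regulators in Arabidopsis is FLC, a MADS-box repressor of flowering, which with its close relatives acts upstream of the flowering promoters FT and SOC1.

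The 4 libraries were of similar depth. A level of 1 FPKM on 1 kb, counted after taking 140 to 150 bp off the transcript length, stood for 29.7 to 33.3 fragments. Replicates correlated across the genes tested with r of 0.990 in Col-0 and 0.992 in dek4-2. The library dek4-2 replicate 1 stood apart in its low genes, since 24.8% of all its genes were under 0.1 FPKM against 16.1 to 18.8% in the other 7 libraries. Summed levels of the green-tissue, endodermis and seed marker lists overlapped between the groups or differed little, with light-harvesting and photosystem genes at 31211 and 27404 FPKM in Col-0 and at 29695 and 27246 FPKM in dek4-2. In the other genotypes, the seed list summed to 1889 FPKM in dek3-2 replicate 1 and 28.5 FPKM in dek3-2 replicate 2. It summed to 10.1 and 138 FPKM in dd-2, and all 8 libraries set the spread used in the tests. No marker on the green-tissue and root lists was at 0 in any of the 4 libraries, so each library held leaf and root RNA. Differences are given as dek4-2 minus Col-0 on the scale of log2(FPKM + 1), with the standard error from limma, and a gene counts as called where its Benjamini-Hochberg adjusted p was under 0.05.

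The mutated gene was examined first. The files and the reference name only DEK3 of this family, and AT5G55660 is taken here as DEK4 from general knowledge of the family, while the reference describes its product as a DEK domain-containing chromatin associated protein. AT5G55660 (chromosome 5, 22538613 to 22543474, TAIR10, plus strand) stood at 23.7 and 35.2 FPKM in Col-0 replicates 1 and 2 and at 10.3 and 18.4 FPKM in the dek4-2 libraries. Both dek4-2 libraries were thus below both Col-0 libraries, with means of 14.3 ± 5.72 (SD, n = 2) against 29.4 ± 8.15 (SD, n = 2), or 2.06-fold lower. The log2 difference was -1.02 with a standard error of 0.29 and did not pass the test (limma adjusted p = 1). Without dek4-2 replicate 1, whose low genes stand apart as given above, it was -0.63. In dek3-2 and dd-2, whose libraries this contrast does not use, the gene stood at 38.0 and 27.0 FPKM and at 16.3 and 15.4 FPKM, a log2 difference of -0.97 that was not called either (limma adjusted p = 0.322). The order of the levels therefore followed the labelled dek4-2 allele in all 8 libraries, and RNA remained in each library that carries it; whether that RNA is translated was not tested.

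The other family members were at nearly the same level in both genotypes. DEK3 (AT4G26630) stood at 48.3 and 70.2 FPKM in Col-0 and at 47.3 and 80.7 FPKM in dek4-2, a log2 difference of 0.09 with a standard error of 0.27. The remaining DEK-domain genes, AT3G48710 and AT5G63550, differed by -0.00 and -0.02, and these signs turned with another scaling of the libraries. Replicate 1 was below replicate 2 for all 4 genes in both genotypes, and for DEK3, AT3G48710 and AT5G63550 the replicates lay further apart than the genotype means.

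Across the 18697 genes tested, 3 were called, which is 0.0160% of them. All 3 fell in dek4-2 and none rose. Without adjustment, 378 genes had a limma p below 0.05, or 2.02%, fewer than the 935 that evenly spread p-values would give. With a replicate block in the model, that count was 534. The count depends on how the model estimates the spread, so it does not measure how alike the genotypes are. Why it is low was not tested. The median log2 difference was 0.00, with 1% of the genes under -0.42 and 1% over 0.36. In 2262 genes both dek4-2 libraries were above both Col-0 libraries, and in 2263 both were below, 12.1% of the genes tested in each direction.

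The gene with the smallest p was AT5G11330, which encodes a member of the FAD/NAD(P)-binding oxidoreductase family and lies on the minus strand of chromosome 5 (3617215 to 3618897, TAIR10). Its level was 66.9 and 68.6 FPKM in Col-0 and 19.2 and 22.5 FPKM in dek4-2. The replicates lay close together in both genotypes and the groups were far apart, with means of 67.7 ± 1.2 and 20.8 ± 2.32 FPKM (SD, n = 2 each), 3.25-fold lower in dek4-2. The log2 difference was -1.66 with a standard error of 0.11 (limma adjusted p = 0.00455). In a bulk extract of whole seedlings, fewer cells that express a gene and less RNA per cell cannot be told apart.

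The same step was seen for AT5G11330 in the libraries that this contrast does not use. It stood at 71.4 and 67.5 FPKM in dek3-2 and at 25.8 and 20.9 FPKM in dd-2. All 4 libraries with the dek4-2 allele were between 19.2 and 25.8 FPKM and all 4 without it between 66.9 and 71.4 FPKM. From dek3-2 to dd-2 the gene fell by 1.54 on the log2 scale (limma adjusted p = 0.00840), as 1 of 4 genes called in that comparison, or 0.0214% of those tested. With a replicate block in the model, the gene was 1 of 99 called there (limma adjusted p = 0.00713). Between the single mutants, which share the dek4-2 libraries with the first contrast, it was 1 of 3 genes called (0.0160%), at -1.69 in dek4-2 minus dek3-2 (limma adjusted p = 0.00128). The call against Col-0 was kept under every alternative and without each library in turn, at -1.77 to -1.55, whereas the call of dd-2 against dek3-2 was lost without either dek3-2 library or without dd-2 replicate 2 (limma adjusted p = 0.108, 0.0763 and 0.0515).

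Genes next to AT5G11330 did not share its difference. The 34 tested genes within 100 kb on either side ran from -0.09 to 0.21, with a median of 0.00, and none was called. The next gene toward higher coordinates, AT5G11340, an acyltransferase family member on the opposite strand, stood at 38.9 and 38.5 FPKM in Col-0 and at 37.6 and 34.9 FPKM in dek4-2. AT5G11330 lies 18.9 Mb from AT5G55660 on the same chromosome, and the 39 tested genes within 100 kb of AT5G55660 ran from -0.26 to 0.18. Its 5 relatives on the list of FAD monooxygenases were not called, and the one whose groups did not overlap, AT5G05320, stood at 3.78 and 3.58 FPKM in Col-0 against 4.21 and 4.33 FPKM in dek4-2.

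**Figure D1:**
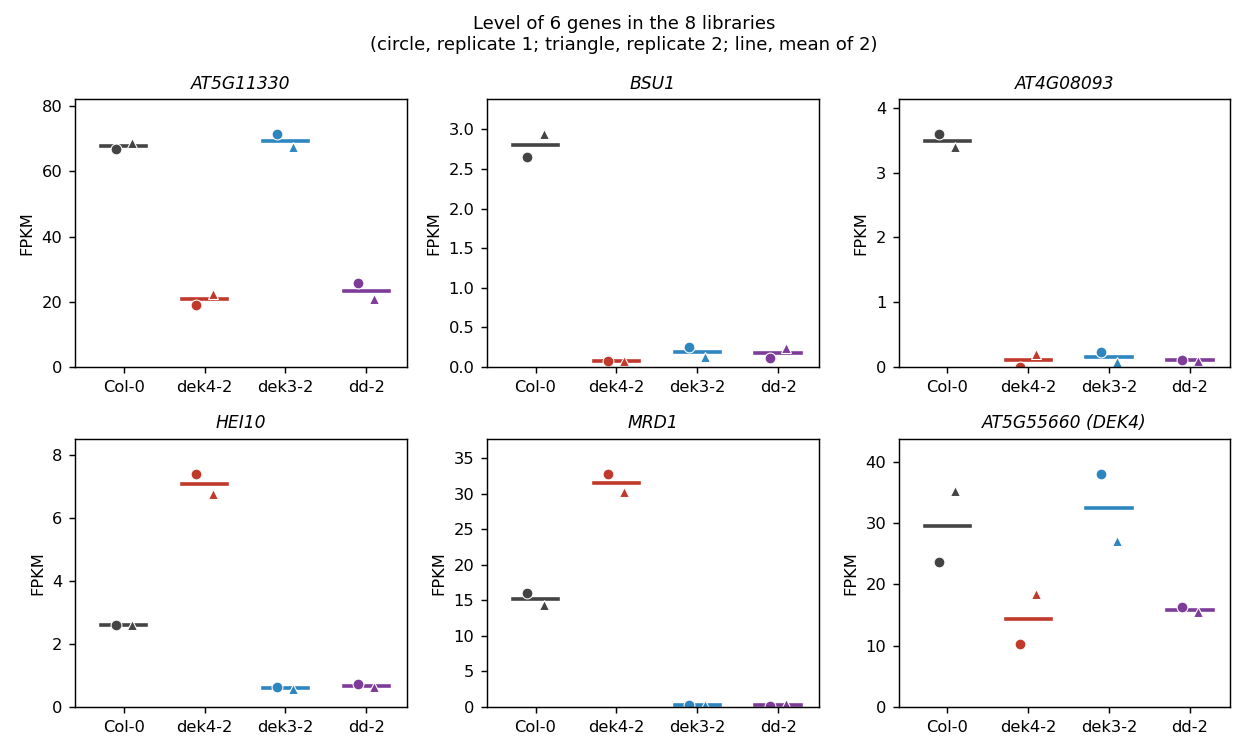
Level in FPKM (linear axes from 0, 1 panel a gene) of the 3 called genes, of HEI10, MRD1 and AT5G55660 in Col-0, dek4-2, dek3-2 and dd-2; points are single libraries and lines are means of 2. AT5G11330 is low in the 4 libraries with the dek4-2 allele, BSU1 and AT4G08093 are low in all 6 mutant libraries, and HEI10 and MRD1 are highest in dek4-2 and near 0 in dek3-2 and dd-2.

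The other 2 called genes were expressed at a low level in Col-0 and near 0 in dek4-2. BSU1 (AT1G03445, chromosome 1, 854410 to 859701) encodes a Ser/Thr phosphatase known for its role in brassinosteroid signalling, and it stood at 2.66 and 2.94 FPKM in Col-0 and at 0.0717 and 0.0769 FPKM in dek4-2. Its log2 difference was -1.82 with a standard error of 0.15 (limma adjusted p = 0.00815). AT4G08093 (chromosome 4, 4990161 to 4991619) is annotated as a transcribed pseudogene, and it stood at 3.59 and 3.40 FPKM in Col-0, while dek4-2 replicate 1 was listed at 0 and replicate 2 at 0.205 FPKM. Its log2 difference was -2.03 with a standard error of 0.16 (limma adjusted p = 0.00815). Both genes passed the filter on low values only through Col-0, as 154 tested genes did, so a gene of this kind had to be lower in dek4-2.

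Both genes were also low in the 4 remaining mutant libraries. The BSU1 level was 0.250 and 0.130 FPKM in dek3-2, and 0.113 and 0.242 FPKM in dd-2. The AT4G08093 level was 0.238 and 0.0781 FPKM in dek3-2, and 0.113 and 0.0967 FPKM in dd-2. The contrasts of dek3-2 and of dd-2 with Col-0 use the same 2 Col-0 libraries, and there the differences of BSU1 were -1.67 and -1.69 (limma adjusted p = 0.0119 and 0.00735), and those of AT4G08093 were -1.96 and -2.02 (limma adjusted p = 0.0117 and 0.00360). In these contrasts 7 genes (0.0374%) and 51 genes (0.273%) were called. In dd-2 against dek3-2, which uses none of those libraries, the log2 differences were -0.02 for BSU1 and -0.06 for AT4G08093. The low level of these 2 genes was thus seen in all 6 mutant libraries, with or without the dek4-2 allele. The difference between dd-2 minus dek3-2 and dek4-2 minus Col-0 was 1.80 for BSU1 and 1.97 for AT4G08093 and was not called (limma adjusted p = 0.132 for each), against 0.12 for AT5G11330. Both calls were lost when either Col-0 library or dek4-2 replicate 1 was left out, and that of BSU1 also without dek4-2 replicate 2 (limma adjusted p from 0.0533 to 0.0896).

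A pair of neighbouring genes on chromosome 1 stood higher in dek4-2 than in any other genotype. HEI10 (AT1G53490), which encodes a RING protein needed for crossovers in meiosis, stood at 2.58 and 2.58 FPKM in Col-0 and at 7.38 and 6.74 FPKM in dek4-2. MRD1 (AT1G53480), annotated as mto 1 responding down 1, stood at 16.0 and 14.3 FPKM in Col-0 and at 32.7 and 30.2 FPKM in dek4-2. The groups did not overlap for either gene. The log2 differences were 1.17 with a standard error of 0.13 for HEI10 (limma adjusted p = 0.0577) and 1.01 with a standard error of 0.14 for MRD1 (limma adjusted p = 0.257). These genes had the smallest p-values after the 3 called genes, and HEI10 was called under median-of-ratios scaling (limma adjusted p = 0.0394).

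In the other mutants the same pair was far below Col-0. HEI10 stood at 0.640 and 0.553 FPKM in dek3-2 and at 0.713 and 0.626 FPKM in dd-2. MRD1 stood at 0.261 and 0.297 FPKM in dek3-2 and at 0.180 and 0.464 FPKM in dd-2. Between the single mutants both genes were called, at 2.33 for HEI10 (limma adjusted p = 0.000441) and 4.66 for MRD1 (limma adjusted p = 5.48e-06) in dek4-2 minus dek3-2. In dd-2 minus dek3-2 the differences were 0.06 and 0.04, and the groups overlapped. The difference between this step and that from Col-0 to dek4-2, -1.10 for HEI10 and -0.97 for MRD1, was not called (limma adjusted p = 0.517 and 0.900). The files give HEI10, MRD1 and the neighbouring RHM2, which encodes a rhamnose synthase, one merged locus (19963047 to 19969757), HEI10 and MRD1 on opposite strands. RHM2 stood at 30.6 and 32.9 FPKM in Col-0 and at 30.0 and 33.8 FPKM in dek4-2. As the use of strand in counting is not given in the sources used here, reads of overlapping genes in this locus cannot be told apart.

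**Figure D2:**
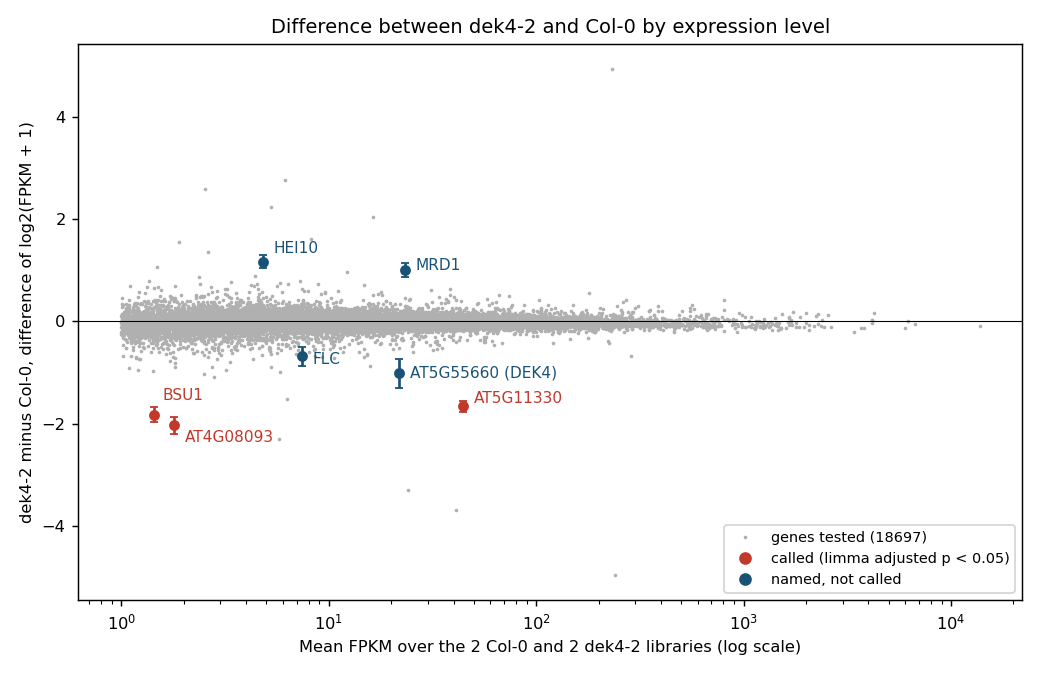
Difference of log2(FPKM + 1), dek4-2 minus Col-0, against the mean FPKM over the 4 libraries (log axis) for the 18697 genes tested; bars on the named genes are limma standard errors. Most genes lie close to 0, the 3 called genes are below it, and the points beyond 4 on either side are TRNA.2 and AT3G01705, each read in 1 of the 4 libraries only.

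Large differences were few, and some of them rested on 1 library. Beyond 1 on the log2 scale, 11 genes were above and 11 below 0. The groups did not overlap in 6 and 4 of these, against 12.1% of all genes tested in each direction. At least 1 library was listed at 0 in 4 of the 11 higher and in 5 of the 11 lower genes. TRNA.2, a chloroplast entry, was at 959 FPKM in Col-0 replicate 2 and at 0 in the other 3 libraries. AT3G01705, a tRNA gene, was at 928 FPKM in dek4-2 replicate 2 and at 0 in the other 3 libraries.

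The protein-coding genes with the largest lower values in dek4-2, at a mean of at least 2 FPKM in the higher genotype and with no overlap, were AT5G11330, BSU1 and AT5G55660, followed by 9 genes that were not called. AT4G26055, an uncharacterized protein gene, stood at 7.62 and 8.37 FPKM in Col-0 and at 4.64 and 2.68 FPKM in dek4-2, with a log2 difference of -0.98. DTXL2 (AT2G04070), of the MATE family of efflux transporters, stood at 1.80 and 2.65 FPKM in Col-0 and at 0.612 and 0.635 FPKM in dek4-2, also at -0.98. QQS, an orphan gene known to affect starch content, stood at 3.70 and 5.28 FPKM in Col-0 and at 1.13 and 2.69 FPKM in dek4-2, at -0.96. The remaining 6, between -0.82 and -0.70, were the uncharacterized AT4G37022, AT3G60650 and AT5G26270, the acyltransferase gene AT4G15390, the LOB-domain transcription factor gene LBD26, and AT5G54370, of the late embryogenesis abundant family.

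The 12 largest higher values were led by genes at or near 0 in Col-0. AT3G49551, at 0 and 2.23 FPKM in Col-0 and 12.6 and 9.83 FPKM in dek4-2, had a log2 difference of 2.76. AT3G22183, listed at essentially 0 in Col-0, stood at 4.65 and 5.46 FPKM in dek4-2, a log2 difference of 2.59. Its dek3-2 replicates, at 0.0101 and 5.88 FPKM, lay as far apart as the 2 genotypes. AT3G22183 and AT2G35850, also among the 12, passed the filter on low values only through dek4-2, as 79 tested genes did. A gene of this kind had to be higher in dek4-2. Of the 12 genes, 5 lie on a locus that the files merge with another gene, against 17.2% of all genes tested. These were AT3G49551, AT3G22183, AT2G35850, HEI10 and MRD1. Among the 7 others, EGC2 (AT2G18660), which encodes a plant natriuretic peptide, stood at 7.76 and 8.21 FPKM in Col-0 and at 15.3 and 17.9 FPKM in dek4-2, at 0.97. AT1G69325, of the remorin family of membrane proteins, followed at 0.87, and the 5 others, among them the lipid transfer protein gene LTP3, lay between 0.72 and 0.78.

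Side by side with dd-2 against dek3-2, which shares no library with this contrast, 9 of the 12 lower genes were below 0, where 41.2% of all genes tested were, and 8 of the 12 higher genes were above 0, where 58.8% were. The share of the higher genes is near that background. Both dd-2 libraries were below both dek3-2 libraries in 5 of the 12 lower genes, which include the mutated AT5G55660. They were above both in 2 of the 12 higher genes. The share of all genes tested without overlap in dd-2 against dek3-2 was not computed, so these counts have no background beside them. AT4G26055 stood at 9.88 and 8.49 FPKM in dek3-2 and at 4.72 and 5.35 FPKM in dd-2, a log2 difference of -0.75 (limma adjusted p = 0.252). DTXL2 stood at 1.49 and 2.95 FPKM in dek3-2 and at 0.623 and 0.399 FPKM in dd-2, at -1.06 (limma adjusted p = 0.207). These 2 genes, AT5G11330 and AT5G55660 were lower by about the same amount with the dek4-2 allele in both backgrounds. AT5G26270 went the other way, at 8.73 and 11.9 FPKM in dek3-2 and 27.9 and 27.3 FPKM in dd-2, and QQS was level there, at -0.08. Over all 18697 genes the 2 sets of differences had a Pearson r of 0.232, given as a description since genes are not independent replicates.

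**Figure D3:**
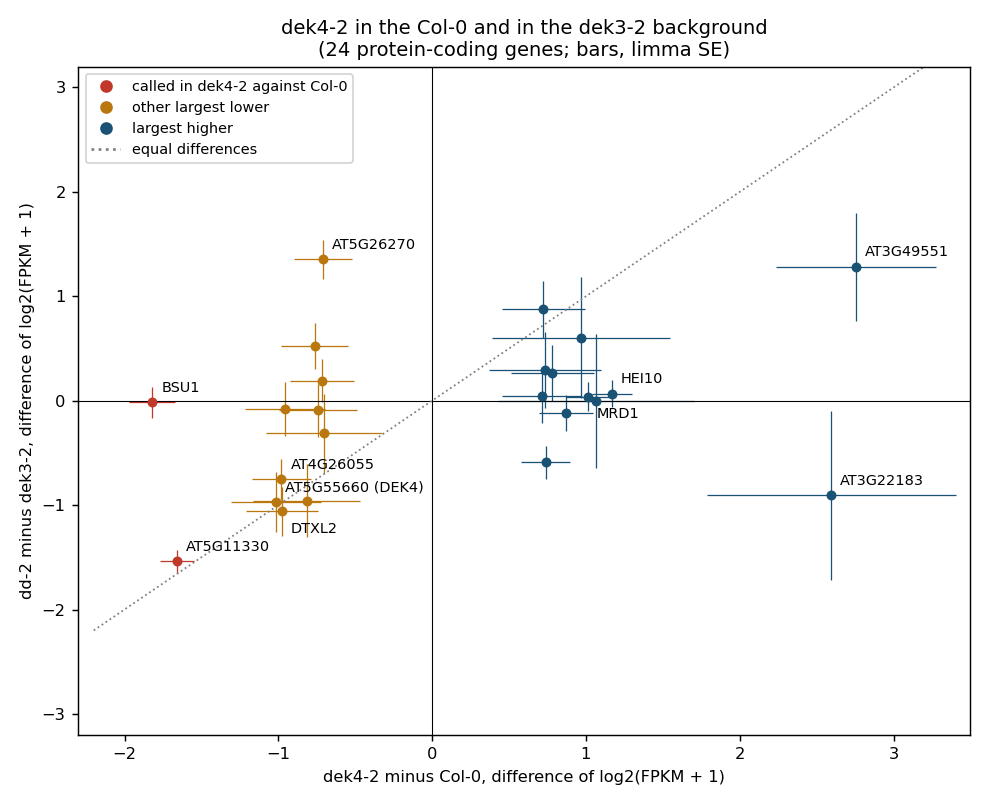
Difference of log2(FPKM + 1) of dek4-2 minus Col-0 (horizontal) and of dd-2 minus dek3-2 (vertical) for the 12 lowest and 12 highest protein-coding genes; bars are limma standard errors and the dotted line marks equal differences. AT5G11330, AT5G55660, DTXL2 and AT4G26055 lie near the line, whereas BSU1, HEI10 and MRD1 lie near 0 on the vertical axis.

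The FLC clade, whose members repress flowering, was below Col-0 in part. No member was called, and 3 of 6 had both dek4-2 libraries below both Col-0 libraries, against 12.1% of all genes tested. FLC stood at 8.40 and 10.5 FPKM in Col-0 and at 5.83 and 5.10 FPKM in dek4-2, or 1.72-fold lower on the means, with a log2 difference of -0.68 and a standard error of 0.18. MAF5 stood at 6.25 and 7.04 FPKM in Col-0 and at 3.89 and 3.88 FPKM in dek4-2, or 1.71-fold lower, with a log2 difference of -0.65 and a standard error of 0.15. MAF4 stood at 5.01 and 5.93 FPKM in Col-0 and at 4.52 and 3.57 FPKM in dek4-2, with a log2 difference of -0.36 and a standard error of 0.14. All 3 had a limma adjusted p of 1. They are the 3 members with the lowest levels in Col-0.

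The more abundant members were level. FLM stood at 37.4 and 35.8 FPKM in Col-0 and at 34.9 and 36.6 FPKM in dek4-2, MAF2 at 30.3 and 32.1 against 25.5 and 34.5 FPKM, and MAF3 at 10.8 and 13.7 against 10.2 and 12 FPKM. Their log2 differences were -0.03, -0.07 and -0.13, and the sign for FLM turned under median-of-ratios scaling. The median of the clade was -0.24, beside 0.00 for all genes tested. MAF2 to MAF5 lie in a tandem array of similar genes, so reads may have been shared between them.

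In dd-2 against dek3-2 the same members were the lower ones. FLC stood at 7.83 and 5.15 FPKM in dek3-2 and at 3.78 and 3.39 FPKM in dd-2, a log2 difference of -0.69. The differences of MAF5 and MAF4 were -0.91 and -0.62, and none of the 3 was called (limma adjusted p = 0.262, 0.147 and 0.214). The lowest levels of FLC, MAF4 and MAF5 in the series were those of dd-2.

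**Figure D4:**
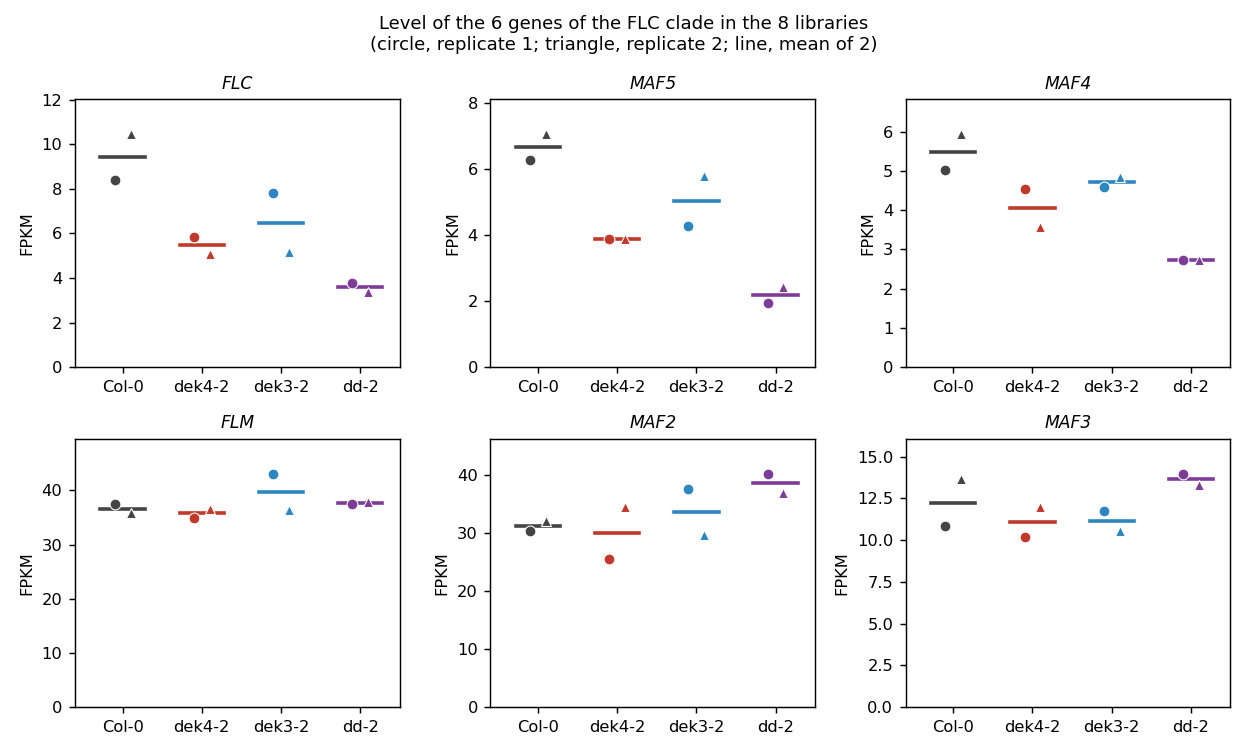
Level in FPKM (linear axes from 0) of FLC, MAF5, MAF4, FLM, MAF2 and MAF3 in Col-0, dek4-2, dek3-2 and dd-2; points are single libraries and lines are means of 2. FLC, MAF5 and MAF4 are lower in dek4-2 than in Col-0 and lowest in dd-2, while FLM, MAF2 and MAF3 overlap between Col-0 and dek4-2.

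The flowering promoters that the clade is known to repress differed little. FT, the mobile signal that promotes flowering, stood at 4.53 and 4.46 FPKM in Col-0 and at 4.61 and 3.6 FPKM in dek4-2, a log2 difference of -0.11. SOC1, a MADS-box promoter of flowering, stood at 10.6 and 10.9 FPKM in Col-0 and at 12.7 and 11.5 FPKM in dek4-2, a log2 difference of 0.15. The 10 floral promoters tested had 5 members on each side of 0. Both dek4-2 libraries were above both Col-0 libraries in 1 of them, SOC1, or 10% against 12.1% of all genes tested, so this is no more than the background. Of the other floral repressors, TOE2 was at -0.14 and SVP at 0.11. The 32 known regulators of FLC, among them chromatin modifiers of the FRI, PAF1 and Polycomb pathways, had a median of 0.03, with 18 above and 14 below 0. That balance was 27 above and 5 below with median-of-ratios scaling, and 8 above and 24 below without dek4-2 replicate 2. The lowest of them was SEF, a subunit of a chromatin remodelling complex, at 9.92 and 9.64 FPKM in Col-0 and 7.69 and 8.53 FPKM in dek4-2.

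In the remaining lists, single members differed little, and some lists leaned to 1 side. Of the 427 genes tested from all 31 lists, AT5G11330 was the only one called, and 17 had an unadjusted limma p below 0.05, or 3.98% against 2.02% of all genes tested. The lists were chosen with earlier results of these data known, and they hold AT5G11330, AT5G55660 and HEI10. The higher share is therefore no evidence that the lists are enriched. The lists were not tested as sets, and the counts below describe these 4 libraries.

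Chromatin genes were nearly level. Among 35 histone genes 31 were below 0, at a median of -0.07, but the balance turned to 26 above and 9 below 0 without Col-0 replicate 1. Several histone genes are near-identical copies, so their single values are uncertain. The linker histone gene HIS1-3, which is known to respond to drought, stood at 49.2 and 48.8 FPKM in Col-0 and at 67.5 and 65.9 FPKM in dek4-2, a log2 difference of 0.44 with a standard error of 0.12 (limma adjusted p = 1). Of 12 genes of HMGB proteins, the FACT complex and topoisomerases, 11 were above 0 at a median of 0.07, but only 4 were without dek4-2 replicate 2. SSRP1, a FACT subunit, stood at 26.8 and 26.6 FPKM in Col-0 and at 31.0 and 30.3 FPKM in dek4-2, a log2 difference of 0.19.

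Abscisic acid and dehydration genes leaned upward. Of 21 tested, 20 were above 0 and 11 had both dek4-2 libraries above both Col-0 libraries, or 52.4% against 12.1% of all genes, and none was called. NCED3, which catalyses the committed step of abscisic acid synthesis, stood at 1.81 and 1.90 FPKM in Col-0 and at 2.5 and 3.65 FPKM in dek4-2, a log2 difference of 0.50. ATHB7 was at 0.36, and ABF3 and ABI2, a transcription factor and a phosphatase of the abscisic acid pathway, were at 0.25 and 0.23. RD29A, a classic dehydration and cold marker, overlapped between the groups, at 5.39 and 9.45 FPKM in Col-0 and 7.66 and 16.0 FPKM in dek4-2. The median of 0.18 kept its sign under every alternative, between 0.08 and 0.23. The count above 0 fell to 15 of 21 without dek4-2 replicate 2.

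The ER body list, genes of an endoplasmic reticulum compartment that stores myrosinases against herbivores, had all 13 members above 0, at a median of 0.15. In 6 of them, or 46.2%, both dek4-2 libraries were above both Col-0 libraries, against 12.1% of all genes tested. JAL22, a jacalin-related lectin, stood at 35.6 and 39.0 FPKM in Col-0 and at 46.8 and 51.9 FPKM in dek4-2, a log2 difference of 0.39. BGLU18, a beta-glucosidase that can release abscisic acid from its glucose ester, stood at 40.9 and 42.9 FPKM in Col-0 and at 48.3 and 52.3 FPKM in dek4-2. Without dek4-2 replicate 2, 7 of the 13 were above 0.

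Auxin response genes had 13 of 17 members above 0, at a median of 0.11, but 10 of 17 without Col-0 replicate 2 or without dek4-2 replicate 1. SAUR23, a small auxin-induced growth gene, stood at 2.22 and 1.46 FPKM in Col-0 and at 2.78 and 3.19 FPKM in dek4-2, a log2 difference of 0.50. Its level was 1.29 and 1.30 FPKM in dek3-2 and 4.04 and 3.6 FPKM in dd-2. Of the phosphate starvation genes 13 of 15 were above 0, but 12 were below 0 without Col-0 replicate 1. PHT1;1, a phosphate transporter, was lower in dek4-2, at 22.1 and 21.7 FPKM against 30.7 and 28 FPKM in Col-0.

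Nitrate genes leaned downward, with 8 of 9 below 0 at a median of -0.10. In 4 of them, or 44.4%, both dek4-2 libraries were below both Col-0 libraries, against 12.1% of all genes tested. NIA1, a nitrate reductase, stood at 214 and 182 FPKM in Col-0 and at 181 and 136 FPKM in dek4-2, a log2 difference of -0.33. The nitrate transporter gene NRT1.1 was at -0.20, the second nitrate reductase gene NIA2 at -0.17 and the nitrite reductase gene NIR1 at -0.10. Genes of light harvesting and the photosystems were on both sides of 0, at a median of -0.02. LHCB2.2 and LHCB2.3, light-harvesting proteins of photosystem II, were the highest of them, at 0.58 and 0.57, and LHCB2.2 stood at 12.9 and 15 FPKM in Col-0 and at 17 and 26.7 FPKM in dek4-2.

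Root hair genes had the lowest median of any list, -0.42, with all 10 tested members below 0. Their summed level over all 14 listed genes, however, was 84.3 and 36.3 FPKM in Col-0 and 45.6 and 30.5 FPKM in dek4-2, so the groups overlapped and the spread between the Col-0 replicates was larger than the difference between genotypes. Without Col-0 replicate 1, 6 of the 10 were above 0. Only LRX1 and COBL9, both known for roles in root hair growth, had both dek4-2 libraries below both Col-0 libraries, 20% of the list against 12.1% of all genes tested, a share near the background. LRX1 stood at 3.46 and 2.08 FPKM in Col-0 and at 2.00 and 1.51 FPKM in dek4-2.

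**Figure D5:**
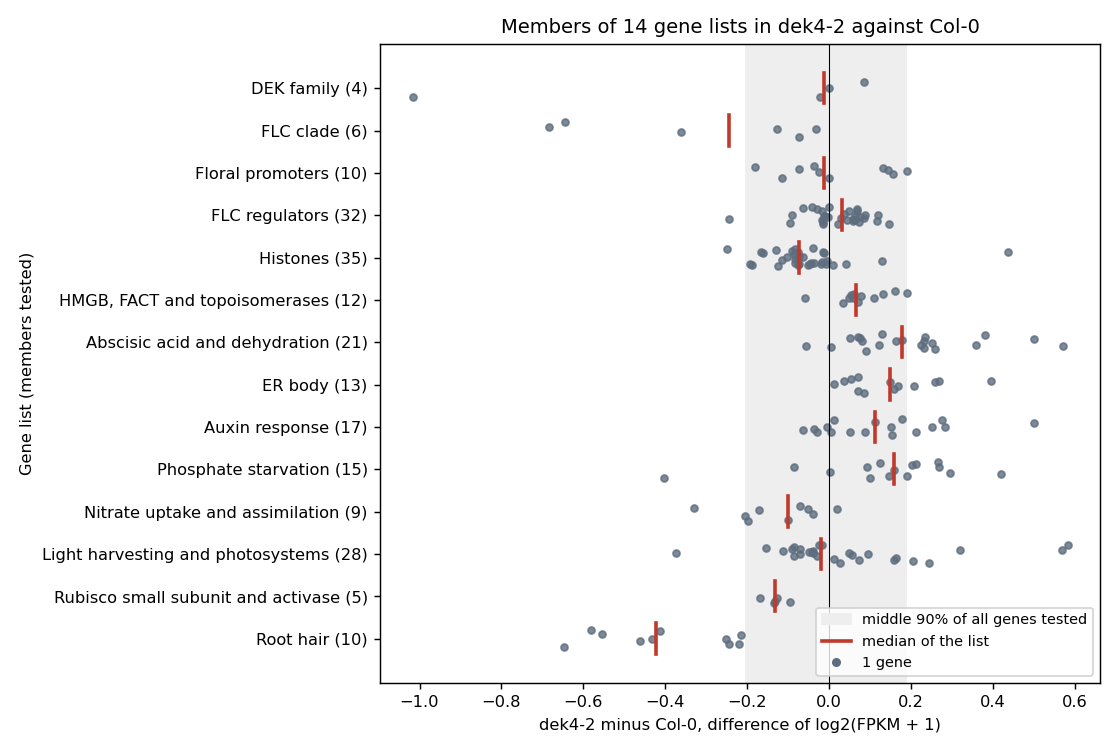
Difference of log2(FPKM + 1), dek4-2 minus Col-0, of each tested member (points) and the median (red bars) of 14 gene lists, with the number tested in brackets; the grey band holds the middle 90% of all genes tested. Most members of the other lists lie inside the band, while AT5G55660, FLC, MAF5, MAF4 and all 10 root hair genes are among those below it; without Col-0 replicate 1, 6 of the 10 root hair genes were above 0.

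The 102 loci under 300 bp behaved unlike the longer genes. At least 1 of the 4 libraries was at 0 in 52.9% of them, against 0.0642% of the longer genes, and 44.1% differed by more than 1 on the log2 scale, against 0.118%. PSBL, a chloroplast gene of a small photosystem II subunit, stood at 47.6 and 72.7 FPKM in Col-0 and was listed at 0 in both dek4-2 libraries. PSBF, from the same operon, stood at 38.0 and 0 FPKM in Col-0 and at 95.1 and 83.6 FPKM in dek4-2, the opposite order. The small nucleolar RNA gene SNOR105 stood at 208 and 82.0 FPKM in Col-0 and was listed at 0 in dek4-2. AT5G27247 was listed at 0 in Col-0 and stood at 4.80 and 11.3 FPKM in dek4-2. On such spans few fragments carry a large FPKM: PSBF and AT4G39361, both 120 bp long, have the same value of 38.0 FPKM in Col-0 replicate 1.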

How the data were processed

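RNA of whole seedlings was sequenced from a directional library kit, per the labels' protocols. TAIR10 is the build, and HISAT2, featureCounts and edgeR are the tools, that the submitters' processing notes list, with no versions. The deposited files hold FPKM per gene, a unit taken per the file headers, with 1 table per library. Which program wrote the FPKM, any scaling between libraries and the use of strand in counting are not given in the sources used here. Low values on single-exon genes fell within 0.15 of whole fragments, which gave the depth of each library. Values with a status other than OK were kept. Among tested genes in the 4 libraries compared, these were AT5G45430 in Col-0 replicate 1 and AT4G24190 in dek4-2 replicate 2. The tables hold no counts, so edgeR was not run here.

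Tests used limma 3.58.1 (R 4.3.3) on log2(FPKM + 1), with a variance trend and robust estimation, in 1 model of 8 libraries with a mean for each of the 4 genotypes and 4 residual degrees of freedom. The Benjamini-Hochberg adjustment ran over all 18697 genes tested. Differences on this scale understate the change of low genes, and the submitters call the 2 libraries of a genotype biological replicates without saying more, so p-values measure the spread between these libraries. The model was also run on simulated data with independent noise and no replicate effect. No gene at the low level of BSU1 or AT4G08093 was changed there, so the simulation does not bear on their calls.

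The genotypes compared, the 31 gene lists (492 genes), and the naming rule were chosen with earlier results of these data known. The rule named all called genes, the 12 largest higher and 12 largest lower protein-coding differences among genes that reach 2 FPKM in the higher genotype without overlap, the DEK and FLC clade genes, FT and SOC1, up to 4 non-overlapping members of each list, and up to 6 short loci. RD29A, TRNA.2, AT3G01705, RHM2 and AT5G11340 were named after their values were seen. Positions count from 1, and 32813 locus codes matched the RefSeq annotation of the reference, used for gene types and products, while 744 did not. Alternatives were other scalings, filters, pseudocounts and variance settings, a block, and leaving out each library. Figures were drawn with matplotlib 3.10.9.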

Additional observations from a re-analysis of the deposited data

How the results depend on the processing

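The count of 3 called genes became 1 (AT5G11330) with quantile normalization, with the filter over all 8 libraries, with a pseudocount of 0.1, or, chosen after seeing the data, with at least 1 FPKM in the lower genotype (a mean of at least 0.5 FPKM, also chosen then, left 3). It became 7 with loci under 300 bp kept, 4 with median-of-ratios scaling or without trend and robust estimation (HEI10 was added), and 2 on the 4 libraries alone: AT5G11330 and AT3G22183, which was higher (limma adjusted p = 0.0229), while BSU1 and AT4G08093 were lost (0.0875 each). Leaving out 1 library at a time gave 3 each time, but without a Col-0 or dek4-2 library only 1 or 2 of these were the same genes, and without either dek4-2 library or Col-0 replicate 2 some were higher in dek4-2. Equal replicate numbers were not treated as pairing, as the labels tie them to no shared batch and their deviations did not correlate above 0.1 for every pair of genotypes. They did for 4 of 6, with r from -0.06 (Col-0 and dd-2) to 0.41 (Col-0 and dek4-2), and the chloroplast share of FPKM was lower in replicate 1 (1.19 to 1.43%) than in replicate 2 (1.79 to 1.87%) in all 4 genotypes. With the replicate block, 3 genes were called, the same ones, AT5G11330 at -1.66 (limma adjusted p = 0.0120), and 99 in place of 4 were called in dd-2 against dek3-2.

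The difference of AT5G11330 in dd-2 minus dek3-2 stayed at -1.54 but missed the threshold without trend and robust estimation (limma adjusted p = 0.0686), and ran from -1.69 to -1.39 with single libraries left out. The difference of AT5G55660 ran from -1.41 to -0.63. Among the named genes, signs turned only in genes that were not called: with median-of-ratios scaling, AT3G48710 to 0.035, AT5G63550 to 0.012 and FLM to 0.0056, and without organelle genes AT3G48710 to 0.014. With single libraries left out, AT3G48710 ran from -0.30 to 0.30, AT5G63550 from -0.22 to 0.17, DEK3 from -0.29 to 0.46, FLM from -0.066 to 8.4e-06, MAF2 from -0.28 to 0.14, MAF3 from -0.28 to 0.030 and FT from -0.26 to 0.028. Scaling moved the median of all genes by at most 0.04. The causes were not tested. With 2 libraries a genotype and a median standard error of 0.12, differences like that of FLC were not detectable here as calls.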

Other observations

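No member of the lists given here was called by limma. Jasmonate genes had 15 of 21 members above 0, at a median of 0.07, but 10 of 21 without Col-0 replicate 1. CORI3, a tyrosine transaminase gene induced by jasmonate, stood at 11.9 and 13.1 FPKM in Col-0 and at 15.7 and 14.8 FPKM in dek4-2. Flavonoid genes had 12 of 17 above 0, but 5 of 17 without dek4-2 replicate 2. DFR, a late enzyme of anthocyanin synthesis, stood at 3.46 and 4.31 FPKM in Col-0 and at 5.09 and 6.34 FPKM in dek4-2. DIN2, a beta-glucosidase gene induced in the dark, stood at 2.13 and 2.45 FPKM in Col-0 and at 3.17 and 5.19 FPKM in dek4-2, a log2 difference of 0.63, while its list had 5 members above and 4 below 0. In dd-2 minus dek3-2 the difference of DIN2 was 1.71 (limma adjusted p = 0.0770).

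Iron genes had 9 of 12 members below 0, and the rubisco small subunit and activase genes all 5, at medians of -0.14 and -0.13. The 5 cold response genes tested were above 0, at a median of 0.13. Medians were between -0.03 and 0.04 for the other floral repressors, cell cycle, circadian clock, salicylate, glucosinolate, aquaporin and heat shock lists, and -0.04 for cell wall genes and -0.08 for endodermis genes. These medians moved with single libraries: that of the heat shock list was -0.25 without dek4-2 replicate 2 and 0.33 without dek4-2 replicate 1, and that of the salicylate list -0.17 and 0.12. The median was 0.13 for endodermis genes without Col-0 replicate 1 and 0.15 for cell wall genes without Col-0 replicate 2. Only 2 of 18 seed storage genes and 3 of 10 meiotic genes passed the filter, so these lists give no picture beyond HEI10.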
